A study of Mus musculus with 12 samples.

Results

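The regions described here are the 843 places in the mouse genome (mm10) that were called as enriched in sonicated input chromatin, that is, in chromatin that had not been immunoprecipitated. All rows of the list of input-called regions were taken, and they made up 843 of the 54518 regions and peaks listed in all, the other 53675 being the OCT4 peaks that were kept after the input-called regions had been subtracted. The chromatin came from iXist-ChrX-Cast, a female mouse embryonic stem cell (mESC) line that carries an inducible Xist on one X chromosome and has one set of chromosomes from a domesticus strain (129S) and one from Cast. The series held 12 libraries: input, OCT4 ChIP and YY1 ChIP, each with 2 replicates before induction (day 0, no doxycycline) and 2 after 6 days of 1 µg/ml doxycycline. All groups shared the line, the serum and LIF medium and the crosslinking. The mESCs were grown on SNLP mouse fibroblast feeders that were removed by pre-plating, and the inputs hold no measure of how many feeder cells were left. The list is pooled over the 4 input libraries and holds positions only, so that no region has a value per library, day or allele, and the depth of the inputs was not given. Its regions are therefore described without a test, beside the kept OCT4 peaks, and shares carry an exact count and, for the main ones, a Wilson interval that covers counting error only.

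Input chromatin is sequenced alongside a ChIP because fragments do not pile up evenly even when nothing has been pulled down. A read from a sequence that the genome holds in more copies than the reference assembly shows is placed on the few copies that the assembly has. Families of such sequences include ribosomal RNA gene arrays, satellites at the centromeres, the TTAGGG repeats of telomeres, young transposable elements and recently duplicated gene clusters. Lists of such places are subtracted from ChIP peaks as a blacklist. OCT4 (Pou5f1) is a pluripotency factor that binds an octamer motif, and YY1 is a zinc finger factor found at many promoters.

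Sequences were read from the RefSeq reference genome (GRCm38.p6, the same coordinates as mm10) to show what the largest groups of these regions look like. Regions were put in one sequence family where they aligned to each other at 90% identity or more over at least 50% of the shorter one, and for each of the 4 largest families the central 120 bases of a member of about the median width are shown with the same stretch of its closest partner on another chromosome that was not identical to it. Capitals mark the bases at which the members of a pair differ. In the largest family (141 regions) the stretches came from chrX:8480306-8480425 and, on the minus strand, chr1:147043478-147043597, and they differed at 2 positions. In the next family (48 regions) they came from chr6:142154471-142154590 and chr4:143985514-143985633 (minus strand) and differed at 1 position, and in the one after that (29 regions) from chr1:121203702-121203821 and chr2:22003612-22003731 (minus strand), again with 1 difference. In the last of the 4 (24 regions) they came from chr13:18933372-18933491 and chr6:79633981-79634100 (minus strand), with 1 difference.
Family 1, chromosome X: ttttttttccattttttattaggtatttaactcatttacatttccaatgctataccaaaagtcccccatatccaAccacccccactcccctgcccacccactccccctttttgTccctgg
Family 1, chromosome 1: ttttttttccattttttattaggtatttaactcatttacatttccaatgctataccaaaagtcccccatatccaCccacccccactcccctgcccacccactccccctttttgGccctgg
Family 2, chromosome 6: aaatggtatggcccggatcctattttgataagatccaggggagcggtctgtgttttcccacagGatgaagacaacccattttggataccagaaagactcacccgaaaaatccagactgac
Family 2, chromosome 4: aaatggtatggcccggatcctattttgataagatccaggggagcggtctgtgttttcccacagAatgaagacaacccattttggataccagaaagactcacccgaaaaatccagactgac
Family 3, chromosome 1: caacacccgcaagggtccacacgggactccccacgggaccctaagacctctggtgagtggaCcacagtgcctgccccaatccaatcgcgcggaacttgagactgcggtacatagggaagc
Family 3, chromosome 2: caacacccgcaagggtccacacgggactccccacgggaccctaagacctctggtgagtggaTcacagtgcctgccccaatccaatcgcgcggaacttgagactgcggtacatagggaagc
Family 4, chromosome 13: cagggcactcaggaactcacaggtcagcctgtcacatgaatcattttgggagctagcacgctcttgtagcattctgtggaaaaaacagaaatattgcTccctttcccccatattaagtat
Family 4, chromosome 6: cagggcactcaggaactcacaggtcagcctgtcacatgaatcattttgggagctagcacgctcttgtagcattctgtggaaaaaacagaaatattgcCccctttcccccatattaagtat

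The middle of the widest region (chr8:123619644-123619763), which lies in an array of 5S ribosomal RNA genes, is shown as an example of sequence from a tandem array. It held a run of CA repeats, and its single CG dinucleotide is in capitals.
Widest region, centre: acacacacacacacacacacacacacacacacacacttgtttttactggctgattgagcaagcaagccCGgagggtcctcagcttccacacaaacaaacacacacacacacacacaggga

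Most input-called regions were made of sequence that occurs more than once in the assembly. A region's 31-base words were looked up on both strands over the whole genome, and in 715 of the 843 regions (84.8%, 95% interval 82.2 to 87.1) at least 50% of the words were found more than once, against 5434 of the 53675 kept OCT4 peaks (10.1%). The median region had 94.6% repeated words, whereas the median kept peak had 0%. Only 13 input-called regions (1.54%) had no repeated word at all, against 33885 kept peaks (63.1%). Soft-masked bases, which the reference marks as interspersed or simple repeats, made up at least 50% of 513 regions (60.9%, interval 57.5 to 64.1) and of 8608 kept peaks (16.0%).

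**Figure D1:**
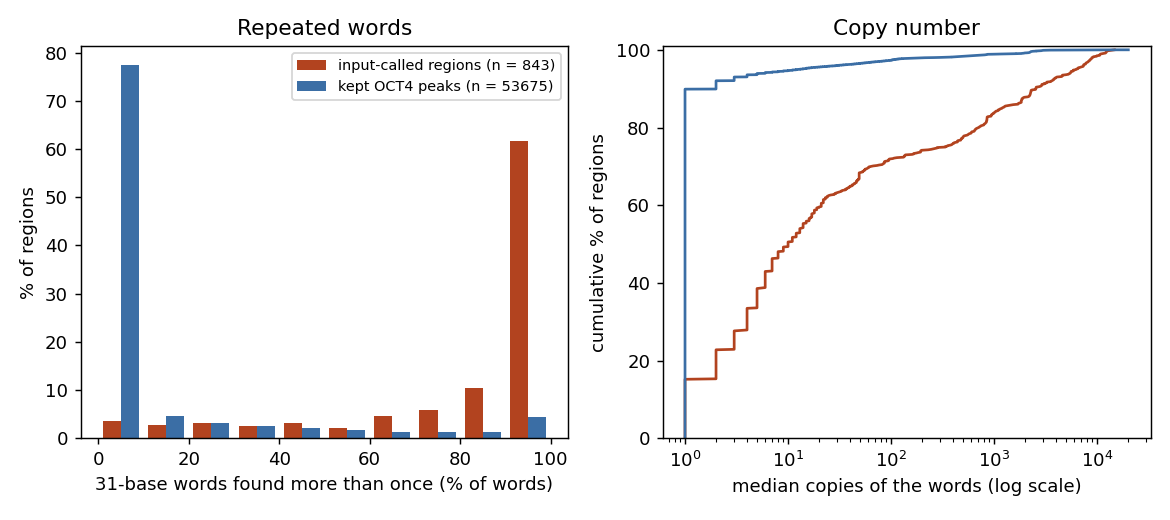
Left, share of 31-base words found more than once in the genome (x, in bins of 10 percentage points) against the percentage of regions (y), for 843 input-called regions and 53675 kept OCT4 peaks. Right, cumulative percentage of regions against the median number of copies of their words (log scale); the input-called regions gather at the high end of the left panel, and 28.1% of them reach 100 copies or more on the right against 2.69% of kept peaks.

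The regions fell into 5 classes by what they matched and how often their words recurred (the limits between classes were set after the values had been seen). There were 8 regions that matched the mitochondrial genome, 15 that held ribosomal RNA sequence, 237 others (28.1%) whose words had a median of 100 copies or more, 458 (54.3%) of lower copy number, and 125 (14.8%) made mostly of single-copy words. The high-copy regions were dispersed, with a median of 99.3% of their words also found on another chromosome and all 237 mostly soft-masked. The low-copy regions had a median of 7 copies of a word and a median of 7.26% of words on another chromosome, but 131 of the 458 (28.6%) were made mostly of words found on other chromosomes. Exons were overlapped by 3 high-copy regions (1.27%), 78 low-copy regions (17.0%) and 25 mostly single-copy regions (20.0%).

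Input-called regions were wider than the kept OCT4 peaks and poorer in G and C. Their median width was 574 bp (quartiles 342 and 1125 bp, range 61 to 9241 bp) against 421 bp (304 and 640 bp) for kept peaks, and 251 of them (29.8%) exceeded 1 kb against 8.72% of kept peaks. The lists were called in different modes, input with broad calling, so that a difference in width between them cannot be told apart from the mode. Median GC content was 41.7% against 49.2%. In all, the regions covered 795031 bp, of which the low-copy class held 50.7% and the high-copy class 27.2%. Widths differed between classes, from a median of 545 bp in the low-copy class to 2459 bp in the ribosomal class.

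**Figure D2:**
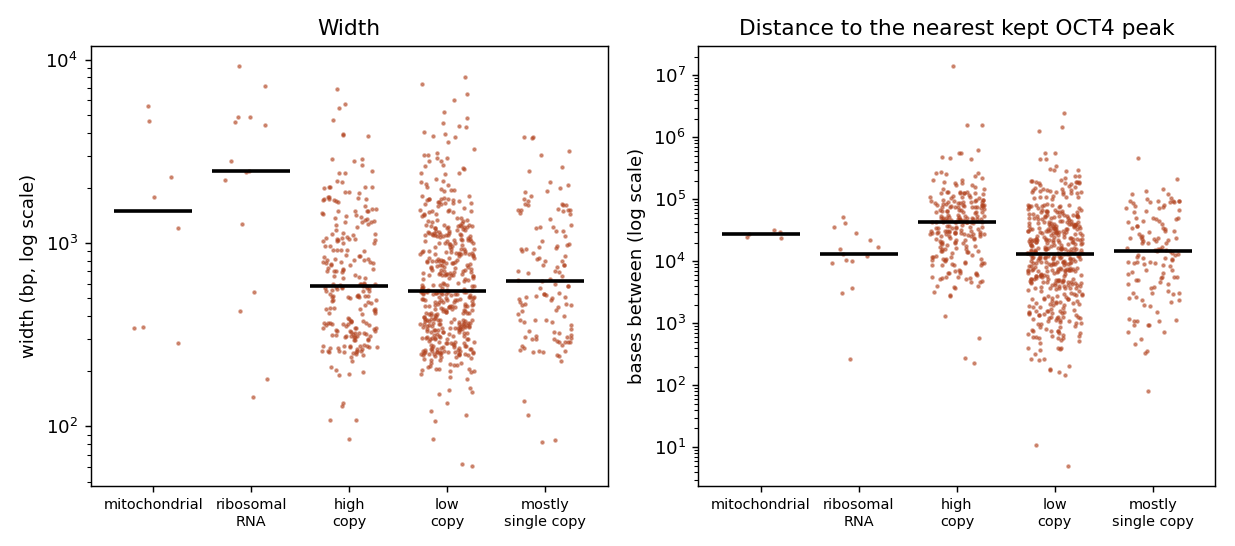
Width in bp (left) and bases to the nearest kept OCT4 peak (right) of every input-called region, both on log scales, by class; each point is a region and the bar is the class median. The ribosomal regions are the widest by median (2459 bp), and the high-copy regions lie farthest from kept peaks (median 42580 bases against 13296.5 for low-copy regions).

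Among the 10 widest regions, the first was the 5S region of 9241 bp on chromosome 8 (chr8:123615084-123624324), and a second region of the same array was 7193 bp wide (chr8:123604689-123611881). The next after the first was a region of 8047 bp in a coding exon of Ahnak2 (chr12:112776070-112784116), a gene for a giant protein with internal repeats. In that region 93.2% of words were repeated, with a median of 15 copies, and none was found on another chromosome. A region of 7353 bp opened the distal cluster of the Y chromosome (chrY:90717663-90725015), and regions of 6463 and 6050 bp lay in an intron of Tmem267 (chr13:119596541-119603003) and 347 bp from Gm36079 (chr13:120027727-120033776). A region of 5764 bp at chr6:65298993-65304756 had a median of 9902 copies of each word, with 97.5% of words on other chromosomes. The remaining 3 were a mitochondrial region of 5564 bp and regions of 6889 and 5473 bp in one family on chromosome 8 (chr8:20678064-20684952 and chr8:20701257-20706729).

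Sequence families joined 491 of the 843 regions (58.2%) into 75 groups. The first family held 141 regions on 20 chromosomes, 24 of them on the X, with a median of 2565 copies of each word. The third family was GC-rich (median 63.1%), and 21 of its 29 members repeated themselves at a median period of 208 bases, where a period is the shift at which at least 70% of a region's bases match. In the first family 18 members were periodic, at a median of 214 bases. The 5' ends of mouse L1 retrotransposons are built of tandem monomers, but no library of repeat names was used here and the families were not assigned to elements. Over all regions, 156 (18.5%) were periodic.

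Other families were confined to one chromosome. The 13 members of one lay in the 5S array of chromosome 8. A family of 9 regions covered chr6:114497117-114625124, a span of 128 kb between Hrh1, a histamine receptor gene, and Atg7, an autophagy gene, with no RefSeq gene inside, a median of 49 copies of each word and GC of 59.2 to 61.8%. The same span held 24 kept OCT4 peaks, and the family's regions lay between 1119 and 4622 bases from the nearest of them. A further family of 9 regions was spread over chr8:20069777-20706729 (637 kb), had 53.4 to 53.8% GC and almost no CpG (observed over expected count at most 0.0234), and repeated itself with a match of 75.1 to 99.3% of bases. The sixth family (13 regions, 11 of them on chromosome 4) was periodic at a median of 84 bases in all 13 members, and 12 of them lay in genes. Zinc fingers of this class are encoded by tandem units of one repeated length.

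One family consisted of telomere repeats. It held 11 regions in which TTAGGG or its complement covered at least 50% of bases (65.6 to 99.5%), found by a search that was chosen after a short tandem period had been seen in them. Of these, 8 ended 4 to 6 bases before the last assembled base of chromosomes 1, 2, 3, 7, 12, 14, 18 and 19, and another ended 3 bases before a gap on the distal X (chrX:170758246-170758508). They were 240 to 672 bp wide. The assembly ends in such hexamers over its last 200 bases on 15 of 21 chromosomes, so that 8 of these 15 ends carried a region. The other 2 regions were internal, at chr12:93576990-93577244 and in Ttc21b, a gene for a ciliary transport protein (chr2:66189210-66189465). Of the kept OCT4 peaks, 1 of 53675 was mostly made of the hexamer and 0 ended within 1 kb of a last assembled base.

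Mitochondrial sequence was called both in its own genome and in nuclear copies. There were 3 regions on the mitochondrial genome itself, of 4612, 2283 and 5564 bp. The other 5 were nuclear, at chr1:24611600-24613392, chr1:24614606-24615808, in an intron of Myo3a (a myosin gene, chr2:22587755-22588097 and chr2:22589602-22589885) and at chr12:97061438-97061787, and each aligned over its whole length to the mitochondrial genome at 99.3 to 100% identity. The nuclear regions were 284 to 1793 bp wide. The mitochondrial genome carried 0 kept OCT4 peaks, so its regions had no distance to one. None of the 5 nuclear regions lay within 10 kb of a kept peak, against 35.6% of all 840 nuclear input-called regions. Those on chromosome 1 are neighbours, as are those in Myo3a, so the 5 are not separate places.

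The ribosomal regions were 13 of the 5S array and 2 of the 45S precursor. The 5S array, chr8:123537498-123624324, spanned 86.8 kb, 48.6% of it covered by regions. It held 41 annotated n-R5s genes at a median spacing of 1702 bp, of which 23 overlapped a region, and 1 kept OCT4 peak. The 45S regions were chr17:39843188-39848040 and chr6:3201012-3201555. The first lies within the span of Gm26917 and Gm42418, the predicted genes annotated over the one assembled 45S copy. That span was itself the 45S sequence used for alignment, so its match was given in advance. The chromosome 6 region aligned to it at 98.0%. The chromosome 17 region had only 17.1% repeated words, although ribosomal genes are present in many copies in a mouse cell, so that a count of copies in the assembly is no measure of copies in the cells. It lay 261 bases from a kept OCT4 peak.

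The 843 regions were unevenly spread over the chromosomes. Chromosome 8 carried 118 and chromosome 4 carried 102, or 0.939 and 0.671 per Mb of assembled sequence, followed by chromosome 14 (65 regions, 0.535 per Mb) and the X (71 regions, 0.434 per Mb). Chromosome 9 had the lowest density, with 10 regions (0.0825 per Mb). Kept OCT4 peaks ranged more narrowly on the autosomes and were densest on chromosome 11 (35.1 per Mb), where the input-called regions had a density of 0.236 per Mb. On the X, input-called regions made up 8.42% of their list and kept peaks 3.99% of theirs.

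**Figure D3:**
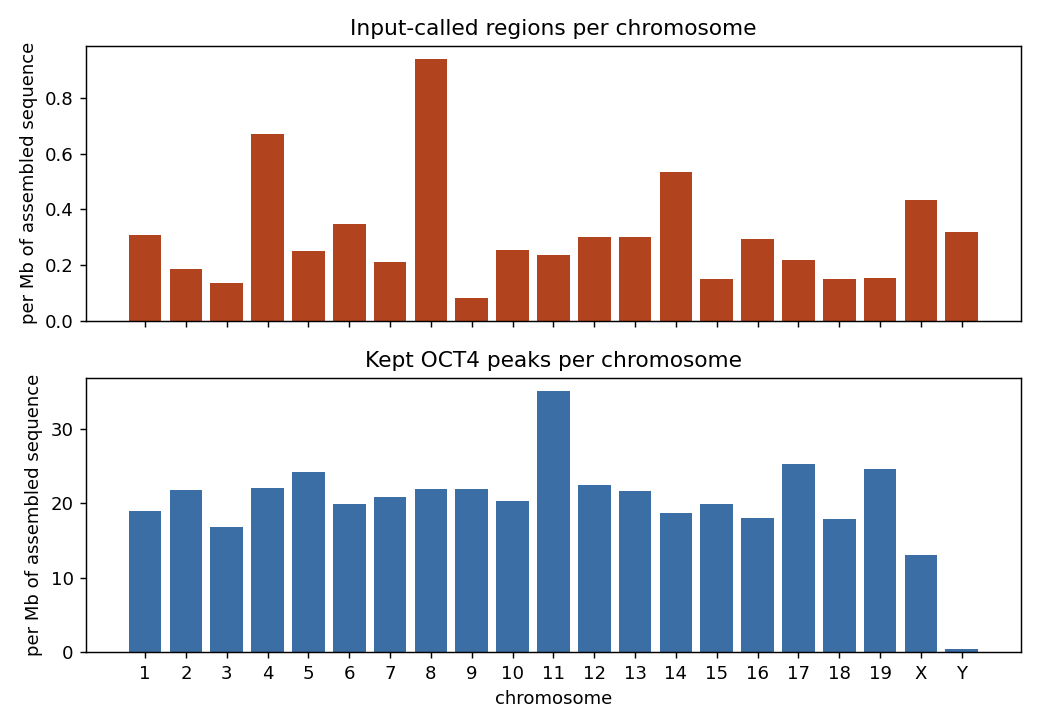
Input-called regions (top) and kept OCT4 peaks (bottom) per Mb of assembled sequence on each nuclear chromosome; the axes differ in scale. Chromosomes 8 (0.939) and 4 (0.671) stand highest for input-called regions, whereas chromosome 11 (35.1) does for kept peaks.

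The regions were clustered within the chromosomes. With a gap of at most 10 kb, 315 regions (37.4%) had a neighbour, in 117 clusters of 2 to 10 regions. With a gap of at most 100 kb, 489 regions (58.0%) had one, and 24 clusters of 5 regions or more held 288 (34.2%). Regions also lay near the breaks of the assembly, with 223 (26.5%) within 100 kb of a run of unknown bases against 1.95% of kept peaks. Within 1 Mb of the first assembled base, which adjoins the centromere in the mouse, there were 56 regions (6.67% of 840) against 461 kept peaks (0.859%).

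The 5 largest clusters were on chromosomes 8, 4 and 1. The largest, chr8:20257745-20711914, held 42 regions, all made mostly of repeated words, with a median of 6 copies and 2.19% of words on other chromosomes, and its regions overlapped the predicted or little characterised genes 6820431F20Rik, 2610005L07Rik and Gm21092. The second, chr8:19909418-20155327, held 22 regions around 9530057J20Rik and Gm20778. The third and the fourth, chr4:147311168-147839602 and chr4:145408051-145862193, held 21 and 20 regions over zinc finger genes, among them Zfp982, Zfp984 and Zfp980. The fifth, chr1:84974879-85346789, held 19 regions, which overlapped Gm38510 and A530032D15Rik. The clusters were not empty of kept OCT4 peaks, of which they contained 20, 6, 31, 28 and 5 in the same order.

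A smaller share of the regions than of the kept OCT4 peaks lay in genes or at starts of transcription. Of the 843 regions, 398 (47.2%) lay in or overlapped a RefSeq gene and 262 (31.1%) a protein-coding one, against 63.4% and 54.4% of kept peaks. By place, 52 regions (6.17%) overlapped a coding exon, 19 (2.25%) only a UTR, 52 (6.17%) a non-coding exon, 275 (32.6%) were intronic and 445 (52.8%) intergenic. Starts of transcription lay within 500 bp of 52 regions (6.17%) against 13153 kept peaks (24.5%). With protein-coding genes alone the shares within 500 bp were 2.49% and 21.8%.

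Several gene families with many close copies held groups of regions. Genes of the Zfp series, which encode zinc finger proteins, had 41 regions inside and 45 within 10 kb, 42 of these on chromosome 4, and Zfp993 alone had 8. Genes and pseudogenes with symbols starting in Vmn2r, the name of a pheromone receptor series, had 10 regions inside and 26 within 10 kb. Of the 26, 22 were on chromosome 4. The pseudogenes Vmn2r-ps17 and Vmn2r-ps16 held 6 and 2 of the regions inside. A region in Vmn2r-ps17 (chr4:146195648-146196026) also overlapped a coding exon and belonged to the sixth family, with a period of 84 bases. The counts therefore go by symbol and not by sequence. By the same count Vmn1r had 0 inside and 6 near, and the 1427 Olfr odorant receptor genes 0 inside and 3 near. The Speer family had 3, all in Speer4cos. The immunoglobulin heavy chain locus Igh had 11 regions between chr12:113335828 and chr12:114788563, with a median of 1 copy of a word. Tcra, the T cell receptor alpha locus, had 5 regions, but these overlapped 0 exons. Their words had a median of 1714 copies, so they are not counted here as close gene copies. No region overlapped a Mup, Skint, Defa, Rhox or Xlr gene, although these too form clusters of close copies. No share over all genes or over kept OCT4 peaks is given for these families. The counts therefore do not set them apart from other genes.

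The lists of named loci gave few overlaps. Of 11 predicted genes linked to satellite sequence, Gm10800 and Gm10801 overlapped a region (chr2:98666277-98667324 and chr2:98662252-98663933). Among 12 matched genes for ribosomal and small nuclear RNA or hosting copies of such sequence, 5 did, namely Gm26917, Gm42418, Lars2 (mitochondrial leucyl-tRNA synthetase) and the overlapping pair Cmss1 and Filip1l. Of 13 duplicated loci, Sfi1, Pisd, Erdr1 and Mid1 overlapped a region and Eif4enif1 was 2421 bases from one. Sfi1, a centrosomal protein gene, lies in a stretch with 9 regions (chr11:3100400-3199921). Of 14 multicopy X-linked genes only 4933407K13Rik, the transcript at the Dxz4 tandem repeat, overlapped regions (2 of them). None of 7 loci often used in engineered constructs, Xist and Pgk1 among them, had a region within 10 kb. The same held for all 20 pluripotency genes, Pou5f1, Nanog and Sox2 among them. The lists are short and the share over all genes is not given here, so these counts do not set the listed genes apart from others.

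The 13 regions without any repeated word were of another kind. They included 2 in Nfatc3, a calcium-responsive transcription factor gene (chr8:106128505-106128885 and chr8:106129188-106130007), both in a UTR, and single ones in a UTR of Cers5, a ceramide synthase gene (chr15:99735611-99736124), in a UTR of Ubqln1, a ubiquilin gene (chr13:58177510-58177868), and in a coding exon of Thap1, a zinc finger gene (chr8:26162551-26162839). Others lay in an intron of Igfbp7 (chr5:77406054-77406558), in a UTR of Sfi1, in an intron of Gm42346, between genes 781 bases from Gm37450 and between genes 79759 bases from Sp4, the nearest gene. The final 3 were in Mid1 on the distal X, of which 1 was in a coding exon (chrX:169966021-169966401). In these regions the reference holds a single copy of every word.

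The X carried 71 regions and the Y carried 28. The line is female. Of the 28 Y regions, 21 were made mostly of words that also occur on another chromosome, against 366 of all 843 regions (43.4%). The median over the 28 regions was 93.9% of words. Of 37 kept OCT4 peaks on the Y, 31 were made mostly of such words, against 7.22% of all kept peaks. A distal Y cluster of 13 regions (chrY:90717663-90812100) faced a distal X cluster of 11 regions (chrX:169928713-170022504), around Erdr1, an erythroid differentiation gene with a copy on each. The pseudoautosomal region, which both chromosomes share, begins within Mid1 and contains Erdr1. Of the 13 distal Y regions, 7 aligned to an input-called region on the X, at a median identity of 94.8%. The distal Y regions had a median of 42.9% of words on another chromosome (range 3.88 to 100%). In the distal X cluster the median was 88.1%. Erdr1 itself was overlapped by 1 region on the X and 7 on the Y.

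No overlap remained between the input-called regions and the kept OCT4 peaks, since the first list had been subtracted from the second. The nearest pair lay 5 bases apart, in an intron of Rex2 on chromosome 4, and the next 11 bases apart in an intron of Iqgap1 on chromosome 7, and 24 regions lay within 500 bp of a kept peak. No kept peak touched the edge of a region. The median distance from a region to the nearest kept peak was 19.8 kb (quartiles 5.74 and 51.4 kb), and the 6 regions more than 1 Mb away were all on the Y.

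Input-called regions were somewhat closer to kept OCT4 peaks than the assembled genome as a whole. Of the 840 nuclear regions, 56 (6.67%) lay within 1 kb of a kept peak, 299 (35.6%, interval 32.4 to 38.9) within 10 kb and 739 (88.0%) within 100 kb, where 4.77%, 27.2% and 81.5% of assembled bases did. A region was counted by its nearest edge, which brings it closer than a single base. The classes were not alike. Within 10 kb of a kept peak there were 204 of 458 low-copy regions (44.5%) and 52 of 125 mostly single-copy regions (41.6%), but 39 of 237 high-copy regions (16.5%). Seen from the kept peaks, 417 of 53675 (0.777%) lay within 10 kb of an input-called region.

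**Figure D4:**
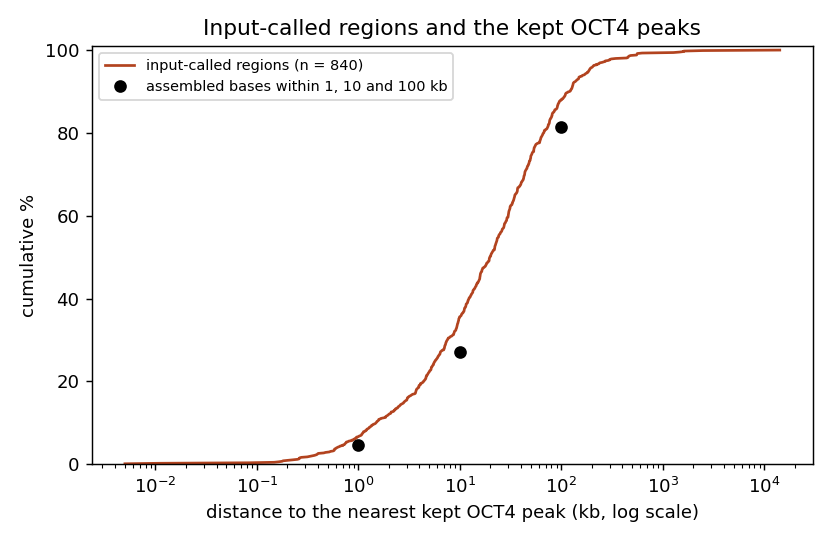
Cumulative percentage of the 840 nuclear input-called regions (line) against distance to the nearest kept OCT4 peak in kb (log scale), with the percentage of assembled bases within 1, 10 and 100 kb of a kept peak (dots). The line passes above the dots at all 3 distances, for example 35.6% against 27.2% at 10 kb.

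The octamer that OCT4 binds was rare in the regions. ATGCAAAT or ATGCTAAT occurred on either strand within the central 300 bases of 26 regions (3.08%, interval 2.11 to 4.48), against 6394 kept peaks (11.9%) and 861 of 32851 RefSeq promoter windows of 300 bases (2.62%). Where a region was narrower, the window ran past its edges. By class, it was found in 10 of 237 high-copy regions (4.22%), 12 of 458 low-copy regions (2.62%) and 3 of 125 mostly single-copy regions (2.40%).

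On the X, per-library values were available for ChIP peaks in the neighbourhood of the regions, as the allelic ratio Xi/(Xi + Xa). It is the share of strain-assigned fragments that were assigned to the X that carries the induced Xist. These values asked whether peaks near input-called sequence behaved like other X-linked peaks when Xist was induced. OCT4 peaks on the X fell in ratio between day 0 and day 6 at 352 of 1006 (35.0%) by limma with Benjamini-Hochberg adjustment, and 1 rose (0.0994%). Of the 54 OCT4 peaks within 100 kb of an input-called region 15 fell (27.8%) and 0 rose, with a median change of -0.120 against -0.149 over all peaks, and of the 10 within 10 kb 2 fell, with a median of -0.0298. At an unadjusted p under 0.05, 22 of the 54 were lower at day 6, against 504 of all 1006. The call rests on both day 0 libraries, since without day 0 replicate 1 or without day 0 replicate 2 none of the 54 peaks passed, and over the whole X 1 and 0 did. Whether nearby and other peaks differ was not tested.

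The 2 OCT4 peaks that fell within 10 kb of a region both lay near high-copy sequence. Whether falls go with copy number was not tested, and the YY1 peak over the region with 602 copies changed by 0.0218. The peak at chrX:87253893-87254276, 6405 bases from a region in an intron of Il1rapl1 (a synaptic adhesion gene) with a median of 5463 copies, gave ratios of 0.630 and 0.521 in the day 0 libraries, then 0.275 and 0.283 after induction. It fell by 0.297 (SE 0.0602, adjusted p = 0.0179, limma). The peak at chrX:150745175-150745709, 5352 bases from a region with a median of 602 copies, gave 0.660 and 0.730, then 0.500 and 0.462, a fall by 0.214 (SE 0.0568, adjusted p = 0.0292, limma). At both, the days did not overlap, but that does not set them apart. The days were also separate at the peaks 9750 and 1071 bases from a region, which did not pass the test. At the peak 1071 bases away the day 6 values were the higher ones. The share of X-linked peaks with separate days is not given here.

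The OCT4 peaks by Mid1 and Erdr1 on the distal X did not pass the test. The nearest of all, at chrX:170008855-170009644 and 382 bases from a region beside Erdr1, gave 0.462 and 0.582, then 0.545 and 0.479, with overlapping days. The peak at chrX:169927047-169927641, 1071 bases from a region in an intron of Mid1, a ubiquitin ligase gene, gave 0.731 and 0.766, then 0.867 and 0.825 (change 0.0971, SE 0.0547, adjusted p = 0.182, limma), so that its day 6 values were both above those of day 0. The other 2 of this distal group, 4970 bases from a region beside Mid1 and 3045 bases from one in an intron of Asmt, a melatonin synthesis gene, changed by -0.0236 and -0.0228. The remaining 4 of the 10, at 1526, 4453, 6055 and 9750 bases, changed by 0.0682, -0.0890, -0.0360 and -0.124 with adjusted p between 0.118 and 0.719 (limma). The second of these lies at Dxz4.

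The YY1 peaks were not all clear of the input-called regions. A comparison chosen after the overlap had been seen showed 6 of the 211 YY1 peaks with allelic ratios overlapping a region and 11 within 10 kb of one. By limma 89 of the 211 YY1 peaks fell (42.2%) and 1 rose (0.474%). Of the 11 within 10 kb, 0 fell and 0 rose after adjustment. At an unadjusted p under 0.05, 1 of the 11 was lower at day 6, against 117 of all 211. The median change was -0.00913 in the 11 against -0.0987 over all YY1 peaks. Of the 6 that overlapped a region, 0 had an unadjusted p under 0.05. In the study's methods the consensus YY1 peaks came from anti-YY1 libraries of both iXist-ChrX lines and had a list of regions called in input samples subtracted, which need not be the list described here. Whether these 11 differ from the other YY1 peaks was not tested.

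None of the 6 YY1 peaks over a region passed the test. The peak at chrX:21244789-21246048, over a region with a median of 501 copies, gave 0.777 and 0.771 in the day 0 libraries, then 0.776 and 0.766 in those of day 6. The peak at Dxz4 (chrX:75733440-75735179), the tandem repeat within 4933407K13Rik, gave 0.420 and 0.413, then 0.376 and 0.403. The peak at chrX:150738993-150739997, over the region with 602 copies, gave 0.212 and 0.239, then 0.273 and 0.222. The ones at 501 and 602 copies stood far from 0.5, on opposite sides of it, before Xist was induced. In the regions under them 99.9% and 88.7% of words also occur on another chromosome. Whether all their fragments came from the X was not tested.

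The other 3 overlapping YY1 peaks lay beside Erdr1. The one at chrX:170009489-170010278 gave 0.733 and 0.743, then 0.729 and 0.736. The one at chrX:170018603-170019287 had 0.681 and 0.568, then 0.627 and 0.637, and the one at chrX:170020626-170022058 had 0.698 and 0.483, then 0.442 and 0.541. The days of the last pair overlapped, and these 2 peaks varied more between day 0 replicates (SD 0.0802 and 0.152, n = 2) than the first (SD 0.00702, n = 2). Among the 5 YY1 peaks that lay near a region without overlapping it, the largest change was -0.104 (SE 0.0405, adjusted p = 0.0820, limma), at chrX:8557606-8558005.

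**Figure D5:**
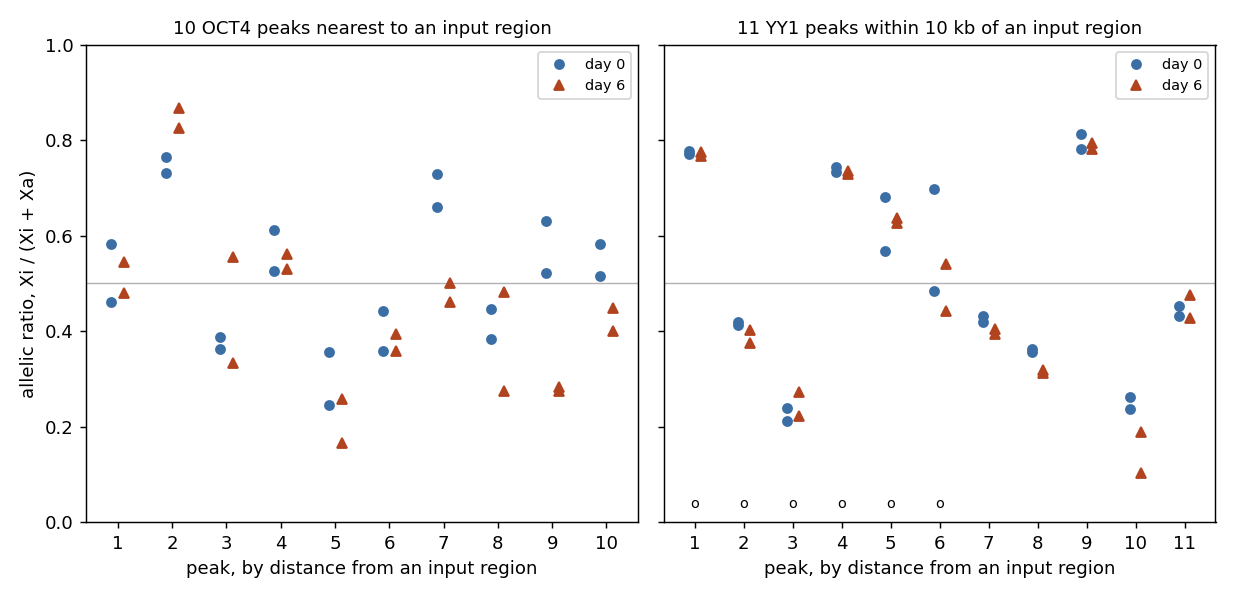
Allelic ratio Xi/(Xi + Xa) at day 0 (circles) and day 6 (triangles) in each of 2 libraries per day, for the 10 OCT4 peaks nearest to an input-called region (left, 382 to 9750 bases away) and the 11 YY1 peaks within 10 kb of one (right), in order of distance, where an o marks the 6 that overlap a region. Only OCT4 peaks 7 and 9 passed the test, and the YY1 peaks show no change past it.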

How the data were processed

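ChIP-seq of OCT4 and YY1 and sequencing of input chromatin had been done in the mESC line at day 0 and day 6 with 2 replicates each (12 libraries, grouped by their titles). The methods state that reads went to mm10 with Bowtie2, masked at strain-specific positions, duplicates were removed with Picard, and peaks were called per library with MACS2, in broad mode at a cutoff of 0.01 for inputs and at q of 0.01 for ChIP. Versions in the submitters' processing notes are 2.3.5.1 for Bowtie2 and 3.5.0 for deepTools. Input calls were merged and subtracted from the consensus OCT4 peaks. Both peak lists hold positions only. Allelic ratios were deposited by the authors as fractions, Xi/(Xi + Xa) fragments per X-linked peak, for peaks with enough strain-assigned fragments that were biallelic at day 0. Depth is not in the files, and ratios say nothing of total occupancy. Reads placed at random among copies, or dropped, would change which repeats are called, and the sources used here do not say how they were treated.

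All positions are 1-based on mm10. Chromosome lengths were checked against the GRCm38.p6 reference, and sequences, soft-masking, gaps and genes were read from RefSeq GRCm38.p6, with GENCODE M21 for predicted genes absent there. Words of 31 bases (21 as an alternative) were counted over the assembled chromosomes. Regions were aligned to each other with BLAST+ 2.17.0 (E-value 1e-10) and joined by single linkage at 90% identity over 50% of the shorter. Clusters were single-linked at 10 kb and 100 kb. Allelic ratios were compared with limma 3.58.1 in R 4.3.3, 2 libraries per day, two-sided, adjusted over all X-linked peaks of a factor with a threshold of 0.05. No source says that replicates came from separate cultures, so p-values measure the spread between these samples. Word counting, distances and the limma fit were tested on simulated data.

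Named were the 10 widest regions, the 5 clusters with most regions, regions within 10 kb of a listed gene, and the 10 X-linked OCT4 peaks nearest to a region. The median-width member of the largest family (chr5:54561008-54561604) had no ungapped partner stretch and was replaced by another member of the same width, and in other families the member nearest to the median width that had one was used. The regions and the lists were chosen with earlier results of these data known. The YY1 comparison, the hexamer search, the region classes, the single-copy regions, Igh, Tcra, the families named from their place and the partner sequences were added after values had been seen. Rn45s was not matched.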

Additional observations from a re-analysis of the deposited data

How the results depend on the processing

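The shares moved with the limits that define them. Kept OCT4 peaks were counted under the same limits of masking, repeated words, genes, transcription starts and gaps. Neighbour and partner shares were computed for input-called regions only. With a joining distance of 1 kb or 100 kb, 4.98% and 58.0% of regions had a neighbour. Within 1 kb and 100 kb of a kept OCT4 peak lay 6.67% and 88.0%. Within 1 kb of a transcription start lay 8.30%, and 2.49% within 500 bp of a protein-coding start, while 31.1% lay in a protein-coding gene. At a limit of 80%, 46.5% were soft-masked and 72.1% were made of repeated 31-base words, and with words of 21 bases 91.1% were made mostly of repeated ones. At 80% identity 68.8% had a partner region. Within 10 kb and 1 Mb of a gap lay 8.42% and 46.5%. The median width was 562 bp without chromosome 8 and 569 bp without the largest cluster, inside its interval. TTAGGG made up at least 20% of 11 regions and at least 80% of 10 (limits added after the values were seen).

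For the X-linked OCT4 peaks within 100 kb of a region, the count of falls was 12 with the replicate block (274 over all peaks against 352 without it). On the logit scale it was 13 (264 over all peaks). Deviations of equally numbered replicates had a correlation of -0.0217 across peaks, and the labels say nothing of a shared extract, so the numbers were not taken as pairs. Leaving out one library gave 0 to 14 falls, and 0 without either day 0 replicate, where a single library stands for day 0 and is assumed to vary like day 6. Depth of the inputs is unknown, and a region absent from the list may have lacked reads.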
